A study of Mus musculus with 26 samples.

Results

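Mouse embryonic stem cells (mESC) with no Klf4 of their own (Klf4-/-) were made to re-express wild-type Klf4, and the sites where the KLF4 antibody gave peaks were set against the open chromatin of KH2 mESC. A WT KLF4 site was a stretch held by PeaKDEck peaks of both WT samples that overlapped no peak of the same antibody in Klf4-/- cells. By this rule there were 2232 WT KLF4 sites, taken from 59425 peaks in the 6 KLF4 lists of the series. The 2 WT samples carried the transgene on a lentivirus, selected with puromycin and induced with doxycycline for 2 days. The methods do not mention cloning of the infected cells. The 2 R462A samples were the same Klf4-/- cells with a mutant KLF4 in which an arginine is replaced by alanine. The 2 Klf4-/- samples had no transgene, so every peak in them came without KLF4. Open chromatin came from 2 ATAC samples of KH2 mESC, in which Tn5 transposase with ordinary Nextera adaptors cuts accessible DNA. The labels give the strain KH2 for the Klf4-/- cells too, whereas the methods take that knockout line from another study, so a shared parent line is in doubt. The KH2 cells of the ATAC samples express their endogenous Klf4, so accessibility and KLF4 binding were measured in different cells, and openness before and after KLF4 binding cannot be told apart. All cells grew on feeder fibroblasts with serum and LIF, and feeders were depleted by pre-plating. Nothing in the labels says whether the 2 samples of a group came from separate cultures, so their spread may be technical.

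KLF4 is a zinc finger transcription factor of the naive pluripotency network, and one of the factors used to reprogram somatic cells. Its zinc fingers read a GC-rich core, and one version of the core has a central CG, which can be methylated, while the version with TG has no CpG. It is counted among the pioneer factors, which can bind their sites in chromatin that is not open.

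The cores searched here were GGGCGTGG and GGGTGTGG on either strand, and a few of the sites that hold one are printed first, to show what the antibody peaks lay over in open and in closed chromatin. Each line gives 30 bases of the mouse genome (GRCm38), 5′ to 3′ on the strand of the core, with the core in capitals.
Tfcp2l1, open, chr1:118627873-118627902, minus strand: cgtggcattagGGGCGTGGttattgcaggg
Tfcp2l1, second core of the same site, chr1:118627887-118627916, minus strand: ggccgtcaggtGGGCGTGGcattaggggcg
Prdm14, open, chr1:13104086-13104115, minus strand: cgctaagcgtaGGGTGTGGctagagatcct
Actb, open, chr5:142905966-142905995, minus strand: cgcttcctgctGGGTGTGGtcgcctcccgc
Krt8, closed, chr15:102003184-102003213, plus strand: agctcgcagagGGGCGTGGgtaggccgacg
Ncs1, closed, chr2:31270656-31270685, plus strand: gtgtgttgggtGGGCGTGGccgctgggtgg
Klf3, closed, chr5:64847391-64847420, plus strand: attgttggagtGGGTGTGGccttgctagag
The first window lies in the Tfcp2l1 promoter, over an exon, and the Prdm14 window is intergenic. The Actb window is at the promoter of the β-actin gene. The Krt8 window is in an intron close to a start, the Ncs1 site overlaps an exon far from the start, and the Klf3 window is intergenic.

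The WT and R462A peak lists belong to samples that the labels title M-ATAC, while the study's methods use PeaKDEck for KLF4 and the library names are those of KLF4, so they were taken as KLF4 peaks with this doubt. WT samples 1 and 2 had 9835 and 12358 peaks on the assigned chromosomes. Of these, 36.9% of sample 1 and 29.2% of sample 2 overlapped a peak of the other sample, against 65.7% and 40.5% for Klf4-/- and 85.5% and 67.0% for ATAC. The R462A samples shared the least, with 14.4% and 18.2% of their peaks. WT peaks were thus shared less than ATAC regions, and the shared stretches are the minority that both lists hold. Before Klf4-/- peaks were removed 3402 stretches were shared, and the 1170 that were dropped were more often open than those kept. The dropped stretches overlapped shared ATAC regions in 49.1% of cases, against 27.6% of those kept. The share with a core was about the same, at 30.1% of the dropped and 28.3% of the kept stretches. The RNA-seq was of samples titled mESC and not of the Klf4-/- cells with WT KLF4. It had Klf4 at 270 TPM (a length-normalised measure of transcript abundance), and the 10 mESC markers ranged from 95.1 to 942 TPM. The 10 fibroblast markers had a median of 10.8 TPM, with Lum lowest at 0.08 TPM and Vim highest at 176 TPM, and Col1a1 stood at 48.7 TPM. The part of feeder RNA or chromatin in the values below was not tested.

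The first question was how many WT KLF4 sites lie in open chromatin. Open was defined as overlap by at least 1 bp with one of 20377 ATAC regions that both ATAC samples held. These regions cover 0.444% of the assigned chromosomes. Of the 2232 WT KLF4 sites 617 were open and 1615 closed, which is 27.6% open. The single ATAC samples covered 28.6% and 33.2% of the sites. The 4 M-ATAC samples of mESC, in which ATAC fragments are bisulfite converted, covered between 32.8% and 36.6%. The 2 unconverted M-ATAC-NC samples of mESC covered 33.5% and 36.5%. The 8 accessibility lists thus ranged from 28.6% to 36.6% of the sites. Over the 8 lists together 1206 sites lay in no list at all.

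The peaks of each KLF4 antibody sample were then placed in the same ATAC regions. With Klf4-/- peaks removed, 11.3% of peaks in WT sample 1 and 18.2% in WT sample 2 were open. The R462A samples had 0.209% and 0.575%, from 14 and 30 open peaks. The WT mean of 14.8% ± 4.88 (SD, n = 2) lay 14.4 percentage points above the R462A mean of 0.392% ± 0.259 (SD, n = 2), and the groups did not overlap (two-sided exact permutation test, p = 0.333, which is the lowest p possible for 2 samples against 2). The direction against Klf4-/- was the opposite. Without removal, 16.6% and 23.7% of WT peaks were open, and 34.2% and 32.1% of Klf4-/- peaks. The WT mean of 20.2% ± 5.03 (SD, n = 2) was 13.0 percentage points below the Klf4-/- mean of 33.1% ± 1.51 (SD, n = 2), again with no overlap (exact permutation test, two-sided, p = 0.333). Adjusted by Benjamini-Hochberg over these 2 tests, both p-values stayed at 0.333. Peaks of the antibody in cells without KLF4 thus lay in open chromatin more often than peaks in WT cells. The labels title the Klf4-/- samples KLF4 ChIP, whereas the study describes M-ChIP for the WT cells. Genotype and library method can therefore not be told apart in this comparison. Klf4-/- peaks were also wider, with a median of 450 bp against 350 and 400 bp in WT, which eases an overlap of 1 bp. With overlap of at least 50% of the peak the difference was -11.2 percentage points.

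**Figure D1:**
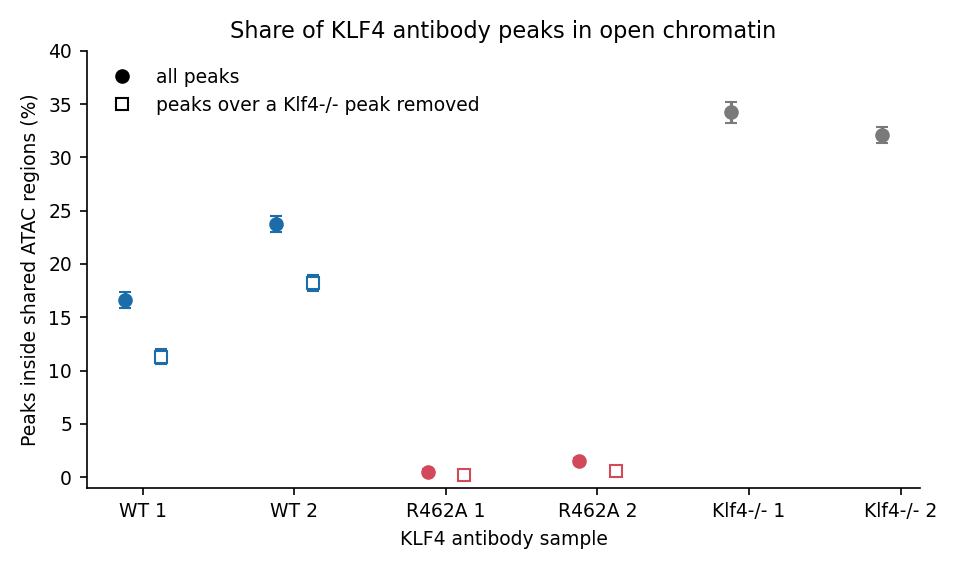
Percentage of peaks inside shared ATAC regions (y axis) for each KLF4 antibody sample (x axis), with filled circles for all peaks, open squares after removal of peaks over a Klf4-/- peak, and Wilson 95% intervals. WT samples sit between 11.3% and 23.7%, R462A samples at or below 1.48% and Klf4-/- samples at 32.1% and 34.2%.

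Closed sites were not of one kind. Besides the 617 open sites, 173 lay in a region of 1 ATAC sample only, 236 in M-ATAC or M-ATAC-NC lists only, and 1206 in no list. The share with a transcription start within 3 kb fell along this order, from 81.0% of open sites to 59.5%, 45.3% and 26.8%. For comparison, 15.1% of the assigned chromosomes lies within 3 kb of a start. The GC box GGGCGG, a common element of CpG-rich promoters bound by the SP and KLF proteins, followed the same order in the 200 bp window at the site midpoint, with 69.4%, 48.0%, 40.3% and 10.7%. Median GC content of the window was 61.0%, 56.5%, 55.5% and 47.5%. A GC box was in 1.92% of 200 bp tiles of the genome and in the midpoint windows of 32.3% of shared ATAC regions. Among ATAC regions without a site it was in 50.1% of those within 3 kb of a start and 8.30% of the others. Open sites within 3 kb of a start held it in 77.0% of cases, and the other open sites in 36.8%. Open sites overlapped an exon in 65.2% of cases and closed sites in 21.2%, and introns held 12.3% of open and 41.2% of closed sites. Closed sites lay a median of 29362 bp from the nearest shared ATAC region. Of the 1615 closed sites 5 were within 100 bp of one and 50 (3.10%) within 1000 bp.

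The core did not follow that order. It was present in 33.2% of open sites (Wilson 95% interval 29.6% to 37.0%), in 34.1% of sites in 1 ATAC sample, in 45.8% of sites in M-ATAC lists only (39.5% to 52.1%), and in 21.6% of sites in no list (19.3% to 24.0%). In all 200 bp tiles of the genome the share was 1.59%. The high share in M-ATAC lists came with the TG version, GGGTGTGG, which was in 28.4% of these sites against 11.5% of open sites, 11% of sites in 1 ATAC sample and 11.4% of sites in no list. The CG version, GGGCGTGG, was in 24.6%, 26.6%, 22.9% and 12.7% of the 4 classes in that order.

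**Figure D2:**
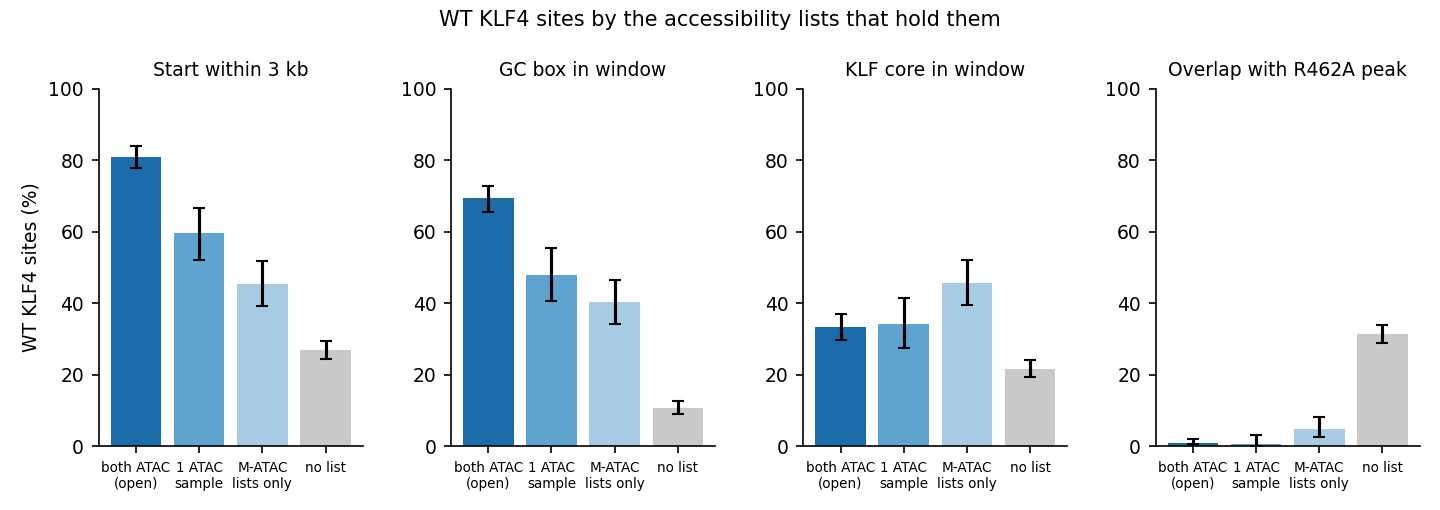
Percentage of WT KLF4 sites (y axis) with a transcription start within 3 kb, a GC box, a KLF core, or an R462A peak, for sites in both ATAC samples (617), in 1 ATAC sample (173), in M-ATAC lists only (236) and in no list (1206), with Wilson 95% intervals. Promoter and GC box shares fall from left to right, and the R462A share is 31.3% in the last class and at most 4.66% in the others.

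Overlap with R462A peaks, which the choice of sites did not use, divided the closed sites. R462A peaks overlapped 6 of the 617 open sites and 390 of the 1615 closed ones, which is 0.972% and 24.1%. In the single R462A samples the shares were 18.9% and 17.6% of closed sites and 0.486% and 0.810% of open sites. Only 0.528% and 1.48% of all R462A peaks lay in shared ATAC regions, so the share at open sites was bound to be low. Closed sites with an R462A peak held a core in 1.54% of cases (0.707% to 3.32%), close to the 1.59% of genome tiles. Closed sites without one held a core in 34.4% (31.8% to 37.1%), and open sites without one in 33.4% (29.8% to 37.2%). These intervals cover counting over sites only, and sites are not replicates, so the last 2 shares were not tested against each other.

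The same division was seen in the peaks of each WT sample. In sample 1 a core was in 1.60% of closed peaks with an R462A peak and in 12.9% of those without, and in sample 2 in 2.22% and 17.8%. Open peaks, however, held a core more often than both, in 28.1% and 27.6%. Over all peaks of a sample, open minus closed was 17.3 percentage points in sample 1 and 11.6 in sample 2, a mean of 14.4 ± 4.0 (SD, n = 2; exact sign-flip permutation test, p = 0.5, the lowest that 2 samples allow, two-sided as are those that follow). Adjusted over the 10 tests of this kind, each p stayed at 0.5. Without peaks over an R462A peak it was 15.3 in sample 1 and 9.89 in sample 2, a mean of 12.6. In the Klf4-/- samples 1 and 2, open minus closed was 3.56 and 3.06 percentage points. Among WT peaks that hold a stretch shared by both WT samples the mean open minus closed difference was 6.74 percentage points. With the TG core alone, over all WT peaks, the mean was 1.70, from 3.29 in sample 1 and 0.115 in sample 2. Closed peaks found in 1 WT sample only held a core in 6.30% (sample 1) and 13.6% (sample 2), against 26.4% of the shared closed sites.

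Closed sites with an R462A peak also stood apart in their sequence. Repeat-masked bases made up a median of 85.8% of their windows, against 11% in closed sites without an R462A peak and 0% in open sites, and their median GC content was 42.5% against 52.0% and 61.0%. The nearest gene had a median of 0.10 TPM, against 2.43 TPM in closed sites without an R462A peak. Chromosome 8 held 26.2% of them. The part of mapping to repeats in these peaks was not tested.

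Where a core was present it lay near the middle of the site. In the central 100 bp there were 27.4 core matches per 100 open sites and 36.8 per 100 closed sites without an R462A peak. In the outer part, between 400 and 500 bp from the midpoint on either side, there were 1.94 and 2.33 matches per 100 sites and 100 bp. Closed sites with an R462A peak had 1.03 in the centre and 0.897 outside, so they showed no rise towards the middle. Matches were more frequent just right of the midpoint than left of it in the direction of the coordinates, and the cause was not tested.

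**Figure D3:**
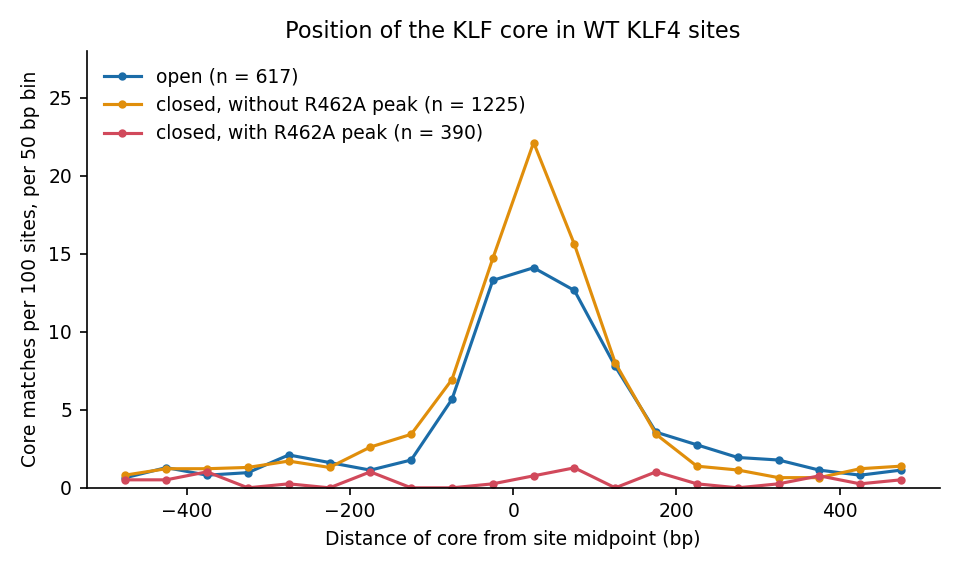
Core matches per 100 WT KLF4 sites in bins of 50 bp (y axis) by distance from the site midpoint in bp (x axis). Open sites (617) and closed sites without an R462A peak (1225) peak at the middle, and closed sites with an R462A peak (390) stay low across the range.

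The strength of the peaks differed little. PeaKDEck gives each peak a p-value with a floor at a −log10 p of 12, and it takes only 18 and 26 distinct values in the WT samples. The median −log10 p of open and closed peaks was 4.47 and 4.30 in sample 1 and 4.46 and 4.22 in sample 2, a mean difference of 0.203 ± 0.0509 (SD, n = 2; exact sign-flip permutation test, p = 0.5). Median width was 400 bp against 350 bp in sample 1 and 450 bp against 350 bp in sample 2. In the Klf4-/- samples 1 and 2, open minus closed was 0.42 and 0.18 in median −log10 p and 100 and 150 bp in median width. The share of sites at the floor in both WT samples was 4.21% for open and 5.63% for closed sites. Of the 91 closed sites at the floor 50 had an R462A peak, and 15.4% of the 91 held a core, against 30.8% of the 26 open sites at the floor.

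Open sites lay near genes with more RNA, measured in mESC and not in the Klf4-/- cells with WT KLF4. The gene with the nearest start had a median of 14.9 TPM at open sites and 0.74 TPM at closed sites, and it reached 1 TPM at 81.4% and 48.7% of sites, where 28.2% of all genes in the table did. In the WT samples the median log2(TPM + 1) was 4.0 at open and 0.39 at closed peaks of sample 1 and 3.98 and 0.63 in sample 2, a mean difference of 3.48 ± 0.18 (SD, n = 2; exact sign-flip permutation test, p = 0.5). Within promoters and within distal peaks the difference was smaller. Promoter peaks alone gave a difference of 2.28 and distal peaks alone 0.85. Among genes of at least 1 TPM it was 0.63. Open promoter sites had a median of 18.2 TPM and closed promoter sites 4.59 TPM, and open distal sites 1.16 TPM against 0.23 TPM for closed distal sites. Peaks of the Klf4-/- samples went the same way, with open minus closed differences in median log2(TPM + 1) of 1.20 and 0.77.

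WT KLF4 sites were then counted at genes of fixed lists. A gene was given a site that lay within 3 kb of its start, or that had it as the nearest gene within 50 kb. Of all genes 1.62% then had an open site and 2.94% a closed one (1.4% and 1.21% within 3 kb of a start), and of genes of at least 1 TPM 4.39% and 5.28%. Of 28 core pluripotency regulators, each of at least 1 TPM, 2 had an open site (7.14%) and 1 a closed site, counts too small to be told from these shares. Tfcp2l1, a transcription factor of the naive state, had an open site at its start (chr1:118627701-118628000, −log10 p of 4.30 and 4.46). Prdm14, which represses differentiation and DNA methylation genes, had an open site 22963 bp from its start (−log10 p of 4.90 and 4.16). Fgf4, a growth factor made by the pluripotent epiblast, had a closed site 3465 bp from its start. No site was assigned to Klf4 itself, nor to Pou5f1, Sox2, Nanog or Esrrb. Mycn and Zfp42 had a shared stretch that was dropped for overlap with a Klf4-/- peak, and 9 and 13 of the 28 genes had any peak in WT samples 1 and 2.

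In the Klf and Sp family, 1 of 26 genes had an open site, Klf9, 376 bp from its start. Klf3 and Klf14 had closed sites, and the Klf3 site held 2 TG cores. Klf3, Klf10, Klf11 and Klf13 had a shared stretch dropped for a Klf4-/- peak. In the list of LIF and BMP signalling, Pim3, a kinase gene induced by LIF through STAT3, had an open site at its start, and Id1 and Smad7, both BMP targets, had closed sites, and Id3, Lifr, Pim3 and Socs3 had dropped stretches. In Wnt and FGF signalling, Etv5, an FGF-responsive transcription factor, had an open site 7314 bp from its start, and Fgf4 and Lgr5 had closed ones, while Etv5 and Spry2 had dropped stretches. Of 12 DNA methylation genes, Mbd3 had an open site at its start and Dnmt3b, a de novo methyltransferase, a closed one 284 bp from a start (−log10 p of 4.47 and 5.25), and Mbd2 had a dropped stretch. These counts of 1 in each list are small and read as single loci.

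In the epithelial, lineage and ribosomal lists no open site was found, and lists of this size cannot be told from the open share of all genes (1.62%) or of genes of at least 1 TPM (4.39%). Of 16 epithelial adhesion genes, each of at least 1 TPM, 4 had a closed site, beside 5.28% of such genes, and Krt18 had a dropped stretch. Cdh1, which codes for E-cadherin, had one in an intron with a TG core (chr8:106624001-106624350). Krt8, a keratin gene, had 2, of which the one 1032 bp from a start held a CG core and lay in M-ATAC lists and the other lay over an R462A peak. Lama1 had 2, both over R462A peaks, and so was the Grhl2 site. Of 26 lineage transcription factors Sox7 and T had a closed site, at 8.47 and 0.86 TPM, and that of Sox7 lay over an R462A peak. Of 24 cytoplasmic ribosomal protein genes, Rps15 and Rpl18 had closed sites. The Rps15 site at its start was in 1 ATAC sample and held a CG core, and that of Rpl18 lay 10 bp outside a shared ATAC region. Rpl8 had a dropped stretch. The list holds only part of the ribosomal protein genes, and Rpl31, which is outside it, had an open site at its start. None of the 10 fibroblast markers had a site, and Col1a1 and Vim had a shared stretch dropped for a Klf4-/- peak.

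The sites at the floor in both WT samples are tied, and the first 5 of each class in genome order are named. The open ones were nearest to Sntg1, Dph5, Osbpl9, Gm43094 and Nipsnap2. None of the 5 had a CG or TG core in the 200 bp window at its midpoint, while the Nipsnap2 site (chr5:129761651-129762300) held a TG core outside that window. The closed ones were nearest to Map4k4, Pth2r, Gm24160, Gm28086 and Ncs1. The Gm24160 site lay over an R462A peak in a window of 100% repeats, and the Gm28086 and Ncs1 sites held a CG core. The Ncs1 site (chr2:31270401-31271000) also held a TG core and was 106260 bp from the nearest shared ATAC region. The most highly expressed genes with an open promoter site were Rpl31 (2256 TPM), Actb (1746 TPM), Gnb2l1 (1616 TPM), Tuba1b (1498 TPM) and Ifitm2 (706 TPM), and of these only the Actb window held a core.

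The second question was how ATAC regions with a WT KLF4 site differ from those without. Of the 20377 shared regions 614 held a site, which is 3.01%, and 3 of these held 2 sites. Regions over a Klf4-/- peak were 24.8% of all, and the rule keeps most of them in the class without a site. Values without these regions are given below for the ATAC fold. Leaving them out (chosen after seeing the data) gave mean differences of 98.75 bp in width and 23.6 percentage points in promoter share. It gave 16.1 percentage points in core share and 1.76 in log2(TPM + 1) of the nearest gene.

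A core was more frequent in regions with a site, and this is the measure the rule did not touch. In the 200 bp at the midpoint a core was in 23.1% of regions with a site and 7.76% of those without in ATAC sample 1, and in 23.0% and 7.44% in sample 2, a mean difference of 15.4 percentage points ± 0.170 (SD, n = 2; exact sign-flip permutation test, two-sided, p = 0.5). Over all shared regions the share was 7.91%. It followed the number of lists that held a peak. Regions with no antibody peak in any of the WT or Klf4-/- lists had a core in 6.19%, those with a peak in 1 WT sample and none in Klf4-/- in 17.0%, and those with a site in 23.1%. Regions with a Klf4-/- peak had 8.27%. Distal regions showed it with the CG core in 11.2% of those with a site against 1.59% of those without, and promoter regions with 18.1% against 5.57%.

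The position of open sites within ATAC regions was read from the summits. Open sites overlap these regions by definition, which limits how far from a summit they can lie. The site midpoint was a median of 91 bp from the strongest summit of ATAC sample 1 and 94 bp from that of sample 2, and 54.9% and 53.0% of open sites were within 100 bp. Core matches, which the definition did not use, were also counted by distance. Within 50 bp of the summit of sample 1 there were 18.6 matches per 100 regions with a site and 5.03 per 100 without, and in sample 2 17.4 and 5.30. Between 400 and 500 bp away they were 3.50 and 1.64 per 100 bp in sample 1 and 3.58 and 1.68 in sample 2.

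The ATAC signal itself was nearly the same. Column 7 of the ATAC lists is the fold enrichment over the local background. Its median was 6.16 in regions with a site and 5.81 in those without in sample 1, and 6.58 and 6.29 in sample 2, a mean log2 ratio of 0.08 ± 0.01 (SD, n = 2; exact sign-flip permutation test, p = 0.5). Promoter and distal regions went opposite ways. In promoters the log2 ratio was 0.13 and 0.12 in samples 1 and 2, a mean of 0.12, and in distal regions it was -0.14 and -0.05, a mean of -0.10. Leaving out regions over a Klf4-/- peak, of which the distal regions with the highest fold hold the most, gave 0.14 in promoters and -0.05 in distal regions. Among promoter regions the share with a site was 3.24% in the lowest of 5 equal classes of fold enrichment and 5.39% in the highest. Among distal regions it was 1.67% in the lowest and 0.390% in the highest class, 7 of 1793 regions, and 44.6% of that class lay over a Klf4-/- peak.

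**Figure D4:**
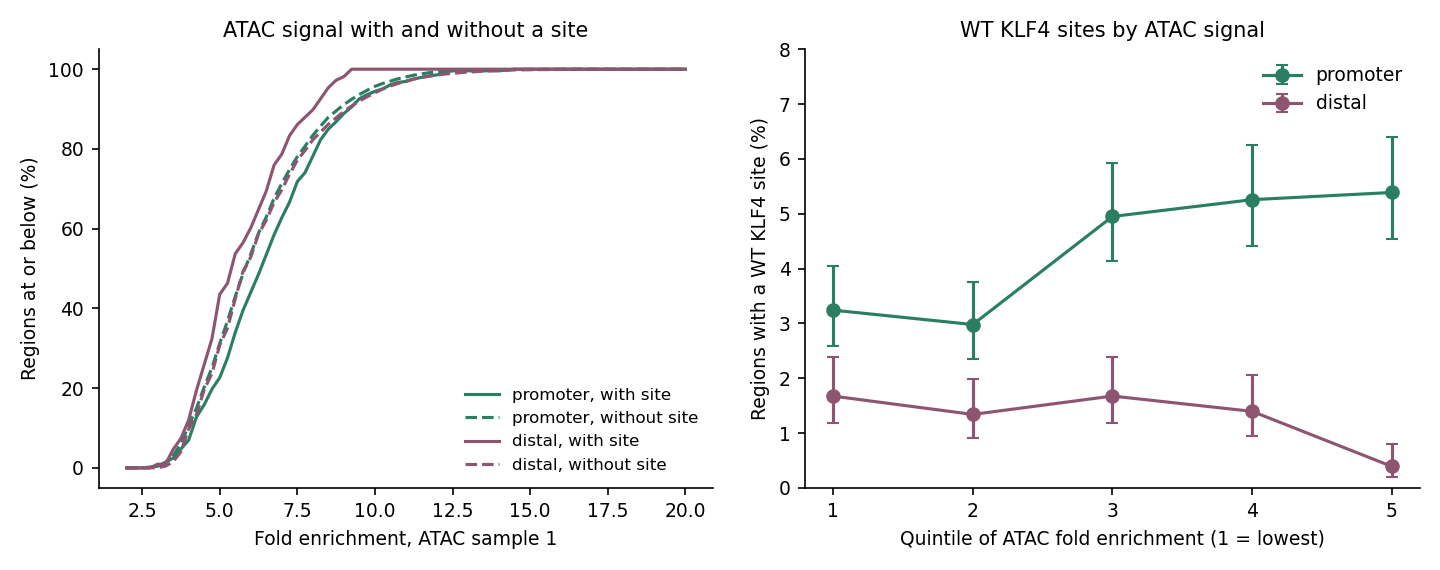
Left, cumulative percentage of ATAC regions (y axis) by fold enrichment in ATAC sample 1 up to 20 (x axis), for promoter and distal regions with and without a WT KLF4 site. Right, percentage of regions with a site (y axis) by quintile of fold enrichment over both ATAC samples (x axis), with Wilson 95% intervals, which goes from 3.24% to 5.39% in promoters and from 1.67% to 0.390% in distal regions.

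Regions with a site were wider, but a wider region also has more room to overlap a site by 1 bp. Their median width was 492 bp against 406 bp in ATAC sample 1 and 577 bp against 475 bp in sample 2, a mean difference of 94.0 bp ± 11.3 (SD, n = 2; exact sign-flip permutation test, p = 0.5). In distal regions alone it was 24.5 bp. They were also more often at promoters, with 81.8% against 55.4% in sample 1 and 81.4% against 55.3% in sample 2, a mean difference of 26.3 percentage points ± 0.211 (SD, n = 2; exact sign-flip permutation test, p = 0.5), where 56% of all shared regions were at promoters. CTCF ChIP regions overlapped 16.1% of those with a site and 12.1% of those without. In promoter regions alone the shares were 15.7% and 14.7%, and in distal regions alone 18.1% and 9.02%.

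The regions of highest fold in both samples are named for each class, and since the classes hold 614 and 19763 regions their maxima are not compared. With a site these were nearest to Gm26853 (14.4 and 14.2), Gm43718 (12.1 and 12.3), Paqr3 (12.2 and 11.7), Msantd4 (12 and 11.6) and Wdr17 (11.4 and 12.2). Without a site the highest fold was 43.1 and 44.4 near Lars2, then 40.1 and 39.0 at Gm13340, and Gphn, Myl12b and Jarid2 followed. The Lars2, Gphn, Myl12b and Jarid2 regions each lay over a Klf4-/- peak and a CTCF ChIP region and held a WT peak that the rule leaves out. The Gm13340 region had no antibody peak.

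Genes near ATAC regions with a site had more RNA. The median log2(TPM + 1) of the nearest gene was 4.07 with and 2.31 without a site in both ATAC samples, a mean difference of 1.76 ± 0.0034 (SD, n = 2; exact sign-flip permutation test, p = 0.5). In promoter regions alone the difference was 0.63, in distal regions alone 1.02, and among genes of at least 1 TPM 0.30. The TPM values are the authors' merge of 2 RNA-seq samples and the same gene values enter both ATAC samples, so the SD reflects the region lists and not the RNA. Among genes with an open promoter, an open site was within 3 kb of the start for 3.30% of genes at 0 TPM and 2.87% of those above 0 and under 1 TPM. The share was 5.07% from 1 to under 10 TPM, 6.34% from 10 to under 100 TPM and 5.25% at 100 TPM or more. The Wilson intervals of the classes from 1 to under 100 TPM lay above those of both classes under 1 TPM, the nearest bounds being 4.33% and 4.28%. The interval at 100 TPM or more, 4.11% to 6.69%, overlapped that of genes at 0 TPM, 2.55% to 4.28%. These intervals cover counting over genes only. Genes can share a site and are not replicates, so the classes were not tested against each other.

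**Figure D5:**
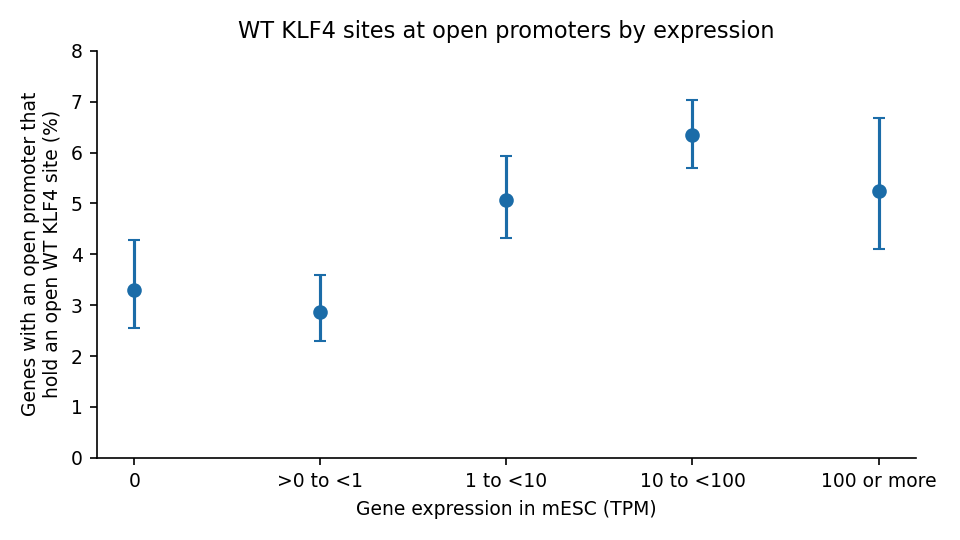
Percentage of genes with a shared ATAC region within 3 kb of a start that also have an open WT KLF4 site there (y axis), by TPM in mESC (x axis), with Wilson 95% intervals. The 2 classes under 1 TPM sit at 3.30% and 2.87%, and the 3 classes above it between 5.07% and 6.34%.

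DNA methylation was read from the authors' table of merged mESC M-ATAC replicates, not of the Klf4-/- cells with WT KLF4. In this table each cytosine of an M-ATAC peak has methylated and unmethylated reads. It has no replicates, and cytosines with at least 5 reads were used. Over whole ATAC regions at promoters 0.333% of reads were methylated in those with a site and 0.478% in those without. In distal regions it was 2.29% with and 5.29% without a site. Klf4-/- peaks lay over 7.76% of the distal regions with a site and 30.7% of those without, and their part in this was not tested. Over the narrower open sites themselves 0.322% of reads were methylated at promoters and 2.22% in distal sites. The cytosines of the CG core were methylated in 0.706% of reads at open sites (491 cytosines) and 6.87% at closed sites that M-ATAC peaks cover (286 cytosines). The Wilson intervals of reads, 0.565% to 0.881% and 6.02% to 7.83%, cover counting error only, since reads of one site are not independent. These core values were not split by position. Promoters held 81.0% of open sites, against 59.5% of closed sites in 1 ATAC sample and 45.3% of those in M-ATAC lists only. Most closed sites lie outside M-ATAC peaks, and their methylation was not analysed here.

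WT KLF4 sites were unevenly spread over chromosomes. Chromosome 8, with 4.75% of the assigned bases and 5.04% of shared ATAC regions, held 14.2% of the sites, 8.59% of the open ones and 18.3% of those in no list. The WT peak lists had 17.5% and 14.8% of peaks there, the R462A lists 19.6% and 20.3%, and the Klf4-/- lists 11.5% and 10.6%. All 6 KLF4 lists shared this excess and the ATAC lists, at 5.10% and 5.04%, did not. Its cause was not tested.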

How the data were processed

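Alignment by the authors was to mm10, after trimming (the submitters' processing notes name Trim Galore 0.4.4, Bismark 0.18.1 and SAMtools 1.3). KLF4 peaks were called with PeaKDEck on subsampled reads, and the deposited lists give a p-value per peak. ATAC, M-ATAC and CTCF ChIP regions were called with MACS2, and the deposited lists give a fold enrichment ratio and −log10 p and q per summit. The authors' expression table holds TPM of merged replicates, and their methylation table holds a count of methylated and of unmethylated reads per cytosine. The depth of the KLF4 libraries is not given in the sources used here, so numbers of peaks were not brought to one depth. The KLF4 lists are not described as blacklist filtered, unlike the ATAC lists.

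Distinct regions on the assigned chromosomes were counted once. ATAC regions were merged stretches held by both samples. Promoters were within 3 kb of a GENCODE M21 start, and nearest genes were taken among the 47187 of 47606 genes (99.1%) whose IDs matched the annotation. Cores were searched in 200 bp windows at midpoints of GRCm38. Groups were compared by exact permutation tests over samples, two-sided, with a pseudocount of 1 for TPM, and shares have Wilson 95% intervals. Genes were named from fixed lists, and by the highest PeaKDEck values, fold and TPM (5 each). The members, lists and tests were chosen with earlier results of these data known. Interval code was tested on simulated data. The work was done in pandas 2.3.3, scipy 1.17.1 and numpy 2.4.6 under python 3.11.15.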

Additional observations from a re-analysis of the deposited data

How the results depend on the processing

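The share of WT KLF4 sites that were open, 27.6%, moved with the lists used. It was 20.8% with ATAC regions of −log10 q at least 5, 35.0% with no removal of Klf4-/- peaks and 46.0% when any of the 8 accessibility lists counted as open. With sites over an R462A peak left out it was 33.3%, and with windows under 50% repeats 35.6% (both chosen after seeing the data). It ranged from 11.3% to 33.2% when 1 ATAC or WT sample was left out, with 18.1% without WT sample 1 and 11.3% without WT sample 2, where sites are no longer shared stretches. The share of ATAC regions with a site, 3.01%, was 1.86% when any of the 8 lists counted as open and 5.82% with no removal of Klf4-/- peaks, and it ranged from 2.41% to 8.50% when 1 sample was left out, the highest without WT sample 1. The log2 ratio of ATAC fold turned to -0.10 in distal regions, and to -0.050 there without regions over a Klf4-/- peak (an alternative also added after seeing the data). Over all regions it was 0.19 without ATAC sample 1 and 0.11 without sample 2. The means of the other 11 differences kept their direction under every alternative run for them, the one without chromosome 8 included (also chosen after seeing the data). In WT sample 1, however, the open minus closed differences in peak −log10 p and width were 0 among peaks with a stretch shared by both WT samples (exact sign-flip permutation test, p = 1 over both samples). The replicate numbers mark no shared culture, and with the replicate block the differences of 14.4 and -13.0 percentage points in open share were the same (exact sign-flip permutation test, p = 0.5). No test here could reach 0.05 with 2 samples a group.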
